A study of Mus musculus with 12 samples.

Results

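The genes described here build ribosomes or reside in the nucleolus, the nuclear body in which ribosomal RNA is made. They were chosen by name, with earlier results of these data known, as 40 gene symbols looked up in the annotation of the array. Of the 40, 39 had at least 1 probe set annotated to that symbol alone. The only probe set of Mrto4 was also annotated to pseudogenes, so Mrto4 was not tested. The 39 genes had 75 of the 45101 probe sets of the array, and 72 of the 75 passed a filter on dim signals. All 39 genes passed that filter, among 19990 features tested in all, where a feature is a gene or a probe set without a single symbol.

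Expression was measured with Affymetrix mouse arrays in 4 kinds of culture, with 3 arrays of each from what the series record calls independent experiments. Cells of all 4 groups came from bone marrow of (C57Bl/6Ly-Pep3b x C3H/HeJ) F1 mice that had been treated with 5-fluorouracil. All of them carried a retrovirus for NUP98-HOXD13, a leukaemia fusion of a nucleoporin with a homeobox protein, so the controls carried it too. The lines grew for 4 weeks in liquid culture whose cytokines were stem cell factor (100 ng/ml, mouse), interleukin 6 (10 ng/ml, human) and interleukin 3 (6 ng/ml, mouse). A second retrovirus then entered by 2 days of growth on irradiated E86 producer cells, and RNA came from sorted cells. The M33-MEIS1 group received a vector for M33-MEIS1, named after M33, an older name of the Polycomb protein Cbx2, and the labels describe this protein no further. The MEIS1-deltaHD group received MEIS1 without its homeodomain, the part that binds DNA. The MEIS1-WT group received wild-type MEIS1, and the MIY-ctrl group received MIY, the vector with yellow fluorescent protein alone. A viral vector drove expression of each insert, and the sources used here give neither the age of the mice nor the gate of the sort.

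RNA polymerase I transcribes the precursor of the large ribosomal RNAs from repeated genes in the nucleolus. Small nucleolar ribonucleoproteins (snoRNPs) of the box C/D and box H/ACA kinds then methylate and pseudouridylate it, and assembly factors fold and cut it into the small and the large subunit. Dividing cells need this supply, and the transcription factor MYC is well known to drive many of these genes through the E-box CACGTG. The cofactor studied here, MEIS1, binds DNA with HOX and PBX proteins and speeds leukaemia in mice that carry NUP98-HOXD13 cells.

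Promoter sequences are shown for the genes whose signals differed most from control and for the members with an E-box near their start site. In the promoter table used here, RefSeq sequences of the mouse build GRCm38.p6, a promoter was matched for 34 of the 39 genes, as 250 bases before and 50 bases after the start site. Bop1, Rrs1, Fbl, Rrp12 and Npm1 were not matched in that table. Lyar, Nolc1, Nop56 and Nop16 were among the most raised genes and have no CACGTG in this window. Their last 100 bases before the start site, 5′ to 3′ in the direction of the gene, were read at chr5:38220382-38220481, chr19:46075747-46075846 and chr2:130274312-130274411 on the plus strand and at chr13:54590075-54590174 on the minus strand.
Lyar: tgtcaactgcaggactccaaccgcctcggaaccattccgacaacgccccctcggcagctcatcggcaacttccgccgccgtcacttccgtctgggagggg
Nolc1: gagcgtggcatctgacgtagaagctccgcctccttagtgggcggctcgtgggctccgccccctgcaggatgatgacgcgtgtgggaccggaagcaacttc
Nop56: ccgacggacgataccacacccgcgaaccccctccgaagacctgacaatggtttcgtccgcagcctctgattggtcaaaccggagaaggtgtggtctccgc
Nop16: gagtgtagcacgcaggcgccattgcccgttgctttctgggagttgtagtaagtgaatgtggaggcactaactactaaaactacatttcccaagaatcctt

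Nop2 and Rrn3 were the members with CACGTG before the start site, at -60 in Nop2 and at -215 and -48 in Rrn3, where -1 is the base before the start site. The same stretch of 100 bases lies at chr6:125131783-125131882 and at chr16:13780599-13780698, both on the plus strand, and capitals mark the E-box.
Nop2: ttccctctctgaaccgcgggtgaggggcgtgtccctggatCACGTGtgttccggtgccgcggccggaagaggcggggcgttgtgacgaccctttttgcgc
Rrn3: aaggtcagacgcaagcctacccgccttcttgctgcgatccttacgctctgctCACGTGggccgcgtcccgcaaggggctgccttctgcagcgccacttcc

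In 5 other members CACGTG began after the start site, at base 38 of Utp20, 3 of Pes1, 41 of Mybbp1a, 25 of Tsr1 and 18 of Wdr43. The 30 bases around each E-box lie at chr10:88826765-88826794 on the minus strand and at chr11:3963965-3963994, chr11:72441347-72441376, chr11:74898092-74898121 and chr17:71616220-71616249 on the plus strand.
Utp20: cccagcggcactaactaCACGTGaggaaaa
Pes1: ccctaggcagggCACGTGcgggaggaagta
Mybbp1a: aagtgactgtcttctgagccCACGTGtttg
Tsr1: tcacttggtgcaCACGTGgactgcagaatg
Wdr43: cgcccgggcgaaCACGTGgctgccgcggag

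The window held CACGTG in 7 of the 34 member genes (20.6%), against 8.09% of all 27025 genes with a promoter in the table. The MEIS-type core TGACAG, searched on both strands, was in 5 of the 34 (14.7%), against 21.6% of all genes. The GC box GGGCGG was in 26 of the 34 (76.5%), against 38.2% of all genes. The ETS-type core CGGAAG was in 19 (55.9%), against 18.8% of all genes. A GC box and an ETS-type core can share letters, so 1 stretch can hold both. The TATA box TATAAA was in 2 of the 34 (5.88%), against 15.7% of all genes. These are matches of letters, given as a description, and binding was not measured.

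Signals are array intensities on a linear scale, and differences are on the scale of log2(signal + 16), so a dim gene's log2 difference understates its ratio. A gene is said to pass, to be higher or to be lower where its adjusted p was under 0.05 in a limma fit over all 19990 features, and every ± beside a signal is the SD of 3 arrays. The brightest of the 3 Meis1 probe sets was not higher with the constructs. It read 104.2 to 132.6 with M33-MEIS1, 100.1 to 120.0 with MEIS1-deltaHD, 128.8 to 148.1 with MEIS1-WT and 167.8 to 204.5 in MIY-ctrl. The sources used here do not say whether it detects the inserted copies. The dimmer of the Cbx2 probe sets read 40.88 to 59.83 with M33-MEIS1 and at most 14.72 on any array of the other groups, and the brighter one read 52.67 to 72.86 with M33-MEIS1 and 63.65 to 103.7 in MIY-ctrl. Bone marrow progenitor markers were present in every group, with summed signals of 11 markers of 27610 to 31430 with M33-MEIS1, 28270 to 29640 with MEIS1-deltaHD, 20810 to 21660 with MEIS1-WT and 20950 to 24470 in MIY-ctrl. These markers went both ways: 6, 5 and 4 were higher and 3, 3 and 3 lower than in MIY-ctrl with M33-MEIS1, MEIS1-deltaHD and MEIS1-WT. With M33-MEIS1, Ms4a3 and Elane were among the higher ones and Flt3 was among the lower ones.

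Most ribosome biogenesis genes were higher with each construct than with the control vector. With M33-MEIS1, 23 of 39 genes were higher, 1 was lower and 15 did not pass, while 12.4% of all features tested were higher and 18.3% lower. With MEIS1-deltaHD, 31 were higher, 1 was lower and 7 did not pass, and the shares over all features were 13.8% higher and 22.7% lower. With MEIS1-WT, 31 were higher, 1 was lower and 7 did not pass, and the shares over all features were 13.3% and 19.4%. In either direction, 30.7%, 36.6% and 32.7% of all features passed. These 3 comparisons share the control arrays, so their counts are not separate evidence. The 39 genes were chosen with earlier results of these data known, so their direction is not independent evidence either. The same 22 genes were higher with all 3 constructs, 7 were higher with MEIS1-deltaHD and MEIS1-WT only, and 5 passed in none. After quantile normalization, the calls of Npm1 and Tsr1 did not pass with M33-MEIS1, nor those of Npm1, Gar1, Heatr1, Wdr43 and Nop58 with MEIS1-deltaHD. With MEIS1-WT the calls of Npm1, Pes1, Fbl, Gar1, Gnl3, Wdr12, Nop58 and Rrp1b did not pass.

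The size of the shift was moderate. The median log2 difference over the 39 genes was 0.34 with M33-MEIS1, 0.40 with MEIS1-deltaHD and 0.42 with MEIS1-WT, beside -0.13, -0.17 and -0.12 over all features. On single arrays the median log2 level of the 39 genes was 9.51, 9.57 and 9.61 with M33-MEIS1, 9.51, 9.61 and 9.48 with MEIS1-deltaHD, 9.46, 9.53 and 9.34 with MEIS1-WT, and 9.05, 9.19 and 9.01 in MIY-ctrl. All 9 construct arrays lay above all 3 control arrays. The median over all features went the other way, at 5.675 to 5.77 on the construct arrays and 5.95 to 6.04 on the control arrays. Aligning the arrays on their quantiles moved that all-feature median difference up by 0.12, 0.16 and 0.13, and median scaling moved it up by 0.19, 0.22 and 0.20. Relative to all features, the median of the 39 genes was higher by 0.47, 0.57 and 0.54 in the authors' scaling, by 0.27, 0.37 and 0.33 after quantile normalization, and by 0.47, 0.57 and 0.54 after median scaling. Of all calls in the 3 comparisons, 40.3%, 37.8% and 40.7% were higher in the authors' scaling, against 50.6%, 49.6% and 51.0% after quantile normalization and 71.0%, 67.3% and 69.1% after median scaling.

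**Figure D1:**
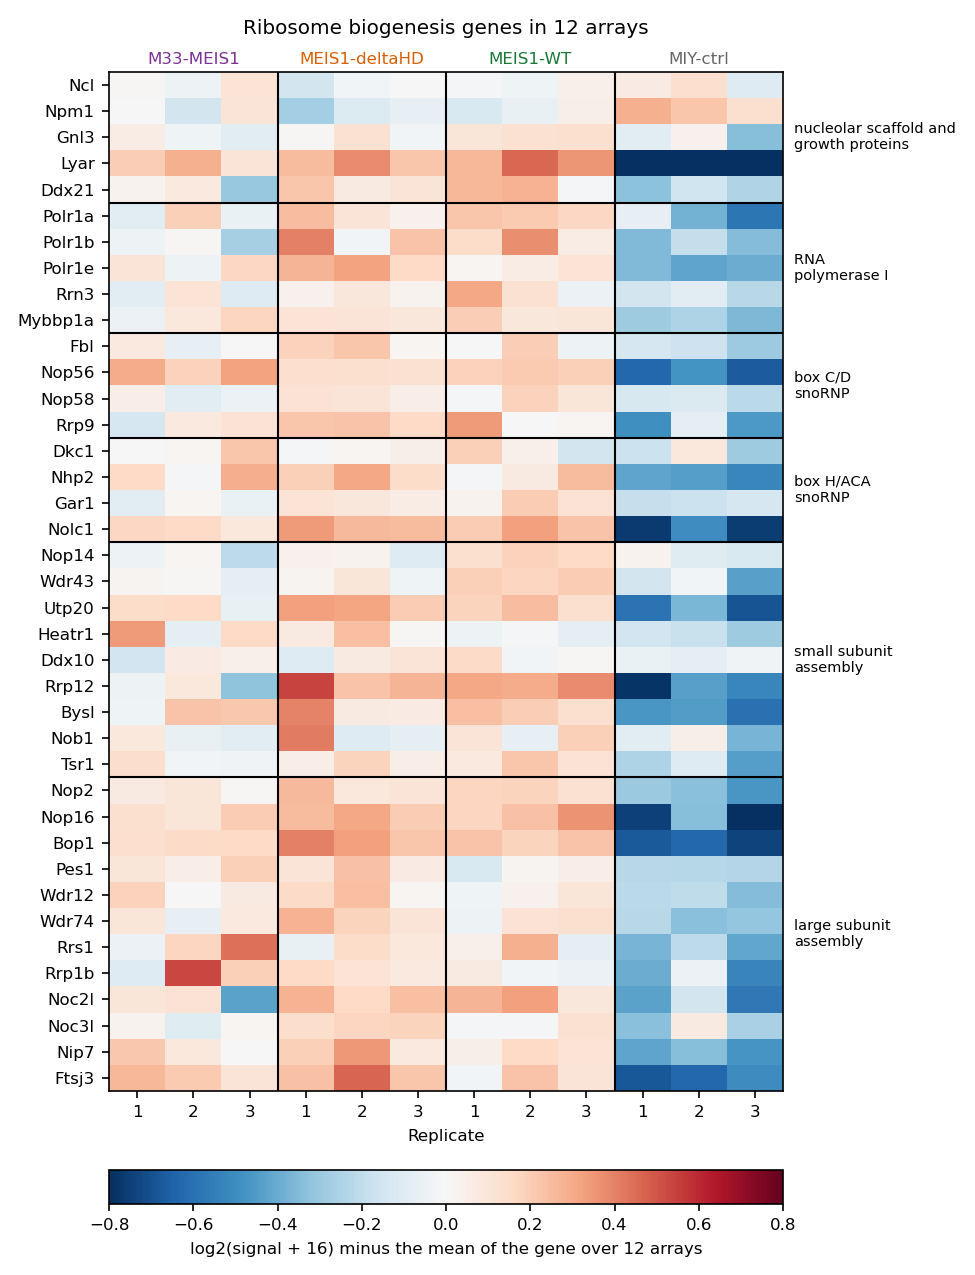
Each row is 1 of the 39 genes, grouped by role, and each column 1 of the 12 arrays, in the order M33-MEIS1, MEIS1-deltaHD, MEIS1-WT and MIY-ctrl. Colour gives log2(signal + 16) minus the mean of that gene over the 12 arrays, and the values of Lyar in MIY-ctrl and of Nop16 in MIY-ctrl replicate 3 lie below the end of the scale. The 3 MIY-ctrl columns are blue for most genes, and Npm1 runs the other way in the probe set and scaling shown.

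Among the nucleolar scaffold and growth proteins, Lyar stood out, while Npm1 and Ncl were not higher. Of the 5, 1 was higher with M33-MEIS1, 2 with MEIS1-deltaHD and 3 with MEIS1-WT, and 1 was lower with each in the authors' scaling. Lyar, a zinc finger protein of growing cells, read 1105, 1174 and 1031 with M33-MEIS1, 1148, 1253 and 1122 with MEIS1-deltaHD, 1161, 1328 and 1233 with MEIS1-WT, and 538.8, 532.8 and 521.9 in MIY-ctrl. Every construct array was far above every control array, and Lyar had the largest log2 difference of the 39 genes in each of the 3 comparisons with control. The differences were 1.03, 1.12 and 1.197 (each SE 0.0759), at 2.08, 2.21 and 2.34 times the control mean, with adjusted p = 2.11e-10, 3.18e-11 and 7.32e-12.

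Npm1, a nucleolar chaperone that is often mutated in human acute myeloid leukaemia, read 6233, 5638 and 6721 with M33-MEIS1, 5180, 5807 and 5971 with MEIS1-deltaHD, 5739, 6004 and 6471 with MEIS1-WT, and 7638, 7285 and 6856 in MIY-ctrl. It was the only member that was lower, with log2 differences of -0.23, -0.36 and -0.26 (adjusted p = 0.0299, 0.000804 and 0.014), and no construct array overlapped control. This held in the authors' scaling and 1 probe set only. After quantile normalization the differences were -0.04, -0.04 and 0.02, after median scaling -0.04, -0.14 and -0.06, and a second Npm1 probe set gave 0.04, -0.02 and 0.03 (adjusted p = 0.759, 0.864 and 0.792). The M33-MEIS1 call was lost without control replicate 1 or 2 or M33-MEIS1 replicate 1 or 2 (adjusted p up to 0.146), and the MEIS1-WT call without control replicate 1 or MEIS1-WT replicate 1 (up to 0.0792).

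Ncl, the nucleolin gene, passed in none of the 3 comparisons. Its brightest probe set read 4895, 4717 and 5233 with M33-MEIS1, 4380, 4789 and 4835 with MEIS1-deltaHD, 4814, 4739 and 4994 with MEIS1-WT, and 5080, 5328 and 4511 in MIY-ctrl. Those values overlap, with log2 differences of -0.01, -0.09 and -0.03. Of the 5 Ncl probe sets, a dimmer one was higher with all 3 constructs when probe sets were tested singly (0.29, 0.41 and 0.46), so the probe sets of this gene disagree. Ddx21, an RNA helicase of ribosomal RNA transcription and processing, averaged 569.4 ± 81.2, 652.7 ± 38.0 and 675.9 ± 74.4 with M33-MEIS1, MEIS1-deltaHD and MEIS1-WT, against 499.1 ± 29.9 in MIY-ctrl. It was higher with MEIS1-deltaHD (0.38) and with MEIS1-WT (0.42), with adjusted p = 0.00356 and 0.00145, and did not pass with M33-MEIS1 (0.18, adjusted p = 0.186). Gnl3, the nucleostemin gene, passed with MEIS1-WT alone (0.25, adjusted p = 0.0226), a call that was lost without control replicate 3, MEIS1-WT replicate 2 or MEIS1-WT replicate 3.

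**Figure D2:**
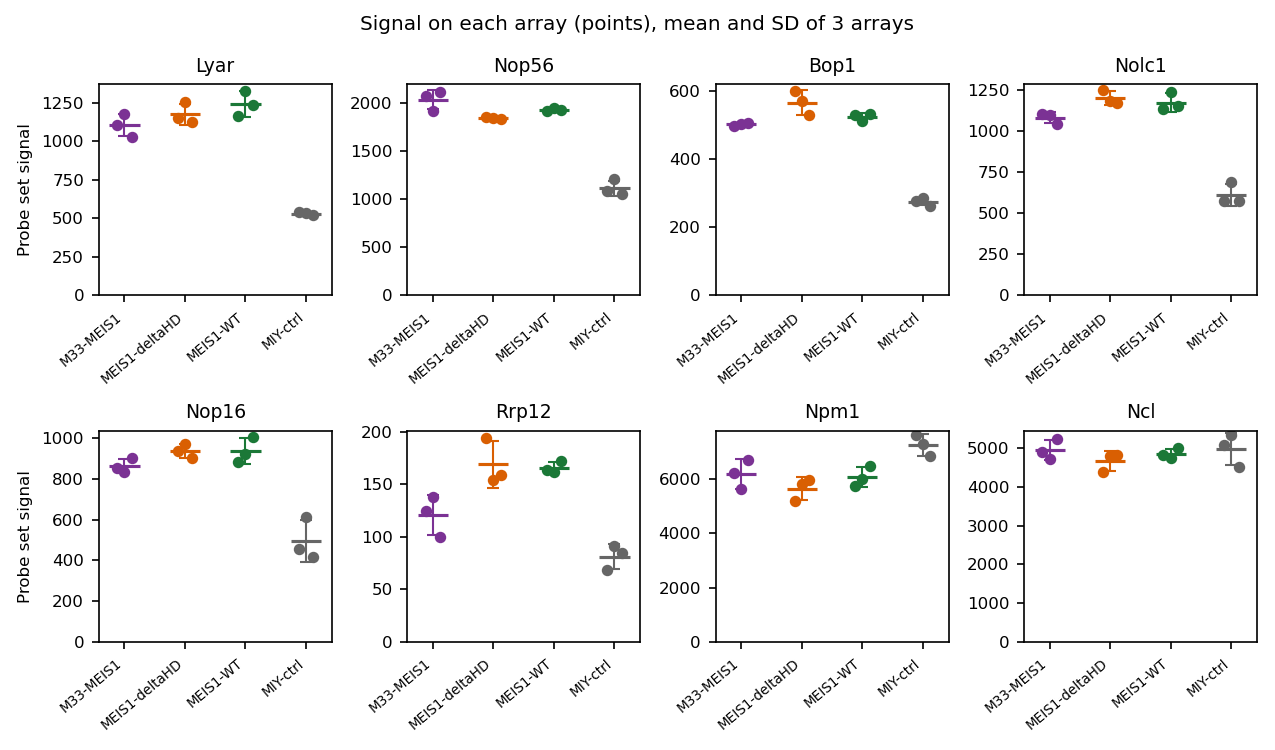
Array signal (linear scale, from 0) of 8 genes in each of the 4 groups, with the 3 arrays as points, the mean as a line and the SD as an error bar. Lyar, Nop56, Bop1, Nolc1, Nop16 and Rrp12 are above the control arrays with every construct. Npm1 is lower in the brighter of its probe sets, before quantile normalization, and Ncl overlaps.

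The genes of the RNA polymerase I machinery among the 39 were mostly higher. Of the 5, 3 were higher with M33-MEIS1, 4 with MEIS1-deltaHD and 5 with MEIS1-WT, with median log2 differences of 0.36, 0.47 and 0.45. Polr1a, the largest catalytic subunit, read 196.0, 242.2 and 202.1 with M33-MEIS1, 251.8, 226.5 and 215.8 with MEIS1-deltaHD, 248.1, 245.7 and 237.2 with MEIS1-WT, and 200.1, 157.8 and 135.6 in MIY-ctrl. The M33-MEIS1 arrays overlapped the control arrays, and those of the other constructs did not. The differences were 0.36 ± 0.114, 0.47 ± 0.114 and 0.54 ± 0.114 (SE, adjusted p = 0.0193, 0.00211 and 0.000576), and the first was lost without control replicate 3 or M33-MEIS1 replicate 2.

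Polr1e, another subunit, averaged 192.6 ± 15.3, 219.1 ± 13.5 and 190.0 ± 6.96 with M33-MEIS1, MEIS1-deltaHD and MEIS1-WT, against 134.6 ± 3.84 in MIY-ctrl. It was higher with every construct, by 0.47, 0.64 and 0.45 (adjusted p = 0.000453, 7.69e-06 and 0.000539). Polr1b, the second catalytic subunit, was higher with MEIS1-deltaHD (0.50) and MEIS1-WT (0.49) and did not pass with M33-MEIS1 (0.20, adjusted p = 0.185). Mybbp1a, a nucleolar regulator of this polymerase, was higher by 0.37, 0.40 and 0.43 with M33-MEIS1, MEIS1-deltaHD and MEIS1-WT. Rrn3, the initiation factor that brings the polymerase to the gene, passed with MEIS1-WT alone (0.28, adjusted p = 0.0357), and not without control replicate 1, control replicate 3, MEIS1-WT replicate 1 or MEIS1-WT replicate 2.

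The box C/D and box H/ACA groups of genes each held a strongly raised gene beside smaller shifts. Of the 4 box C/D genes, 2 were higher with M33-MEIS1, 4 with MEIS1-deltaHD and 4 with MEIS1-WT. The box H/ACA group, in which Nolc1 was counted, had 2, 3 and 3 of 4 genes higher. Nop56, a core protein of box C/D particles, read 2070, 1918 and 2109 with M33-MEIS1, 1852, 1839 and 1828 with MEIS1-deltaHD, 1913, 1948 and 1919 with MEIS1-WT, and 1082, 1203 and 1056 in MIY-ctrl. The constructs lay far above control, by log2 differences of 0.86, 0.72 and 0.78 (SE 0.0699, adjusted p = 1.11e-09, 1.48e-08 and 2.97e-09). Its partner Nop58 averaged 1000 ± 52.2, 1085 ± 23.8 and 1084 ± 75.1 with M33-MEIS1, MEIS1-deltaHD and MEIS1-WT, against 913.4 ± 34.4 in MIY-ctrl, and the differences were 0.13, 0.25 and 0.24. The first of these did not pass (adjusted p = 0.2), and the last was lost without MEIS1-WT replicate 2. Fbl, the methyltransferase of these particles, had differences of 0.20, 0.34 and 0.25 with M33-MEIS1, MEIS1-deltaHD and MEIS1-WT, and missed the threshold at adjusted p = 0.0553 for M33-MEIS1. The MEIS1-WT call of Fbl was lost without control replicate 3 or MEIS1-WT replicate 2. Rrp9, a protein of the U3 particle, was higher by 0.36, 0.55 and 0.46. Its M33-MEIS1 arrays overlapped the control arrays, and that call was lost without control replicate 1, control replicate 3, M33-MEIS1 replicate 2 or M33-MEIS1 replicate 3.

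Nolc1, a chaperone of snoRNPs, read 1102, 1098 and 1040 with M33-MEIS1, 1247, 1179 and 1170 with MEIS1-deltaHD, 1131, 1236 and 1151 with MEIS1-WT, and 571.4, 691.1 and 574.1 in MIY-ctrl. It was higher with every construct, by 0.81, 0.96 and 0.93 (SE 0.0784), with adjusted p = 2.13e-08, 8.87e-10 and 1.29e-09. Nhp2, a core protein of box H/ACA particles, averaged 2947 ± 310, 3091 ± 187 and 2870 ± 273 with M33-MEIS1, MEIS1-deltaHD and MEIS1-WT, against 1922 ± 70.9 in MIY-ctrl. Its differences were 0.61, 0.68 and 0.57, and no construct array overlapped control. Gar1, another core protein, passed with MEIS1-deltaHD (0.25) and MEIS1-WT (0.28) but not with M33-MEIS1 (0.12, adjusted p = 0.212). Dkc1, the pseudouridine synthase of these particles, did not pass in any comparison in its brightest probe set (0.21, 0.14 and 0.15 with M33-MEIS1, MEIS1-deltaHD and MEIS1-WT, adjusted p = 0.108, 0.263 and 0.237). When probe sets were tested singly, a slightly dimmer one was higher with MEIS1-deltaHD (0.39, adjusted p = 0.00124). Another gave -0.11, -0.06 and 0.08 and did not pass, so the probe sets of this gene disagree.

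Of the 9 factors of small subunit assembly, 5 were higher with M33-MEIS1, 6 with MEIS1-deltaHD and 5 with MEIS1-WT, and none was lower. Utp20, a scaffold of the early precursor, read 393.5, 397.7 and 338.6 with M33-MEIS1, 447.8, 444.9 and 410.9 with MEIS1-deltaHD, 401.8, 422.8 and 389.3 with MEIS1-WT, and 229.9, 271.5 and 213.1 in MIY-ctrl. No construct array overlapped control, and the differences were 0.63, 0.83 and 0.73 (SE 0.0927, adjusted p = 9.94e-06, 1.32e-07 and 8.72e-07). Bysl, whose yeast relative Enp1 acts in late nuclear maturation, was higher by 0.64, 0.68 and 0.69, at 317.1 ± 32.9, 327.8 ± 46.6 and 328.3 ± 13.7 with M33-MEIS1, MEIS1-deltaHD and MEIS1-WT, against 197.1 ± 11.6 in MIY-ctrl.

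Rrp12, which in yeast is needed for export of both subunits, had its lowest construct values with M33-MEIS1. It read 124.6, 137.5 and 99.92 with M33-MEIS1, 194.2, 153.7 and 158.7 with MEIS1-deltaHD, 163.5, 162.0 and 171.9 with MEIS1-WT, and 68.06, 90.98 and 84.59 in MIY-ctrl. The M33-MEIS1 arrays lay between the other constructs and control, with no overlap on either side. Against control the differences were 0.49, 0.93 and 0.91 (SE 0.124, adjusted p = 0.00369, 1.93e-06 and 2.57e-06). Tsr1, a late cytoplasmic assembly factor, was higher by 0.29, 0.36 and 0.40 with M33-MEIS1, MEIS1-deltaHD and MEIS1-WT, and its M33-MEIS1 call was lost without control replicate 3 or M33-MEIS1 replicate 1. Heatr1, whose yeast relative Utp10 binds the early precursor, passed with M33-MEIS1 (0.34) and MEIS1-deltaHD (0.31) but not with MEIS1-WT (0.16, adjusted p = 0.198). Those calls were lost without M33-MEIS1 replicate 1 and without MEIS1-deltaHD replicate 2. Wdr43, whose yeast relative is Utp5, passed with MEIS1-deltaHD (0.23) and MEIS1-WT (0.39) but not with M33-MEIS1 (0.19, adjusted p = 0.107), and the MEIS1-deltaHD call was lost without control replicate 3, MEIS1-deltaHD replicate 1 or MEIS1-deltaHD replicate 2. A dimmer Wdr43 probe set gave -0.03, 0.12 and 0.21 with M33-MEIS1, MEIS1-deltaHD and MEIS1-WT when tested singly. It passed in none (adjusted p = 0.877, 0.395 and 0.138). Nop14, Ddx10 and Nob1, the last of which is the nuclease that cuts the end of 18S ribosomal RNA, passed in none, with differences between -0.01 and 0.22.

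Nearly all factors of large subunit assembly were higher. Of 12, 10 were higher with M33-MEIS1, 12 with MEIS1-deltaHD and 11 with MEIS1-WT, with medians of 0.47, 0.50 and 0.47. Bop1, Pes1 and Wdr12 form the PeBoW complex, which is needed for the large subunit's ribosomal RNA to mature. Bop1 read 497.1, 504.1 and 506.4 with M33-MEIS1, 601.0, 570.6 and 529.2 with MEIS1-deltaHD, 531.7, 513.0 and 532.5 with MEIS1-WT, and 277.4, 285.8 and 264.0 in MIY-ctrl. All construct arrays lay far above control, and the differences were 0.83, 1.00 and 0.89 (SE 0.0768, adjusted p = 9.38e-09, 3.03e-10 and 1.61e-09). The other subunits shifted less, Pes1 by 0.34, 0.36 and 0.21 and Wdr12 by 0.34, 0.39 and 0.28 with M33-MEIS1, MEIS1-deltaHD and MEIS1-WT, all of which passed. A much dimmer Wdr12 probe set gave -0.165, -0.072 and -0.226 when tested singly and did not pass (adjusted p = 0.364, 0.703 and 0.195). The MEIS1-WT call of Pes1 (adjusted p = 0.0359) was lost without any single control array, and without MEIS1-WT replicate 2 or 3.

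Nop16, a large subunit factor first known from yeast, read 854.0, 834.8 and 899.2 with M33-MEIS1, 933.2, 970.9 and 901.2 with MEIS1-deltaHD, 880.9, 920.8 and 1003 with MEIS1-WT, and 457.2, 611.1 and 414.8 in MIY-ctrl. It was higher by 0.80, 0.92 and 0.91 (SE 0.0994, adjusted p = 8.91e-07, 8.55e-08 and 8.16e-08). A much dimmer Nop16 probe set gave 0.078, -0.26 and 0.123 when tested singly and did not pass (adjusted p = 0.824, 0.359 and 0.705). Ftsj3, a relative of the yeast ribosomal RNA methyltransferase Spb1, read 533.6, 512.2 and 475.9 with M33-MEIS1, 522.8, 617.3 and 518.0 with MEIS1-deltaHD, 435.4, 520.0 and 475.1 with MEIS1-WT, and 270.3, 280.4 and 306.4 in MIY-ctrl. Its differences were 0.80, 0.91 and 0.71 (SE 0.0897), and no construct array overlapped control. Nop2, the ribosomal RNA methyltransferase whose promoter holds an E-box, was higher by 0.43, 0.52 and 0.53 with M33-MEIS1, MEIS1-deltaHD and MEIS1-WT (adjusted p = 0.00023, 1.68e-05 and 1.46e-05).

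Nip7, which in yeast is needed for the large subunit, was higher by 0.51, 0.62 and 0.52 in its brighter probe set, at 1008 ± 80.1, 1087 ± 102 and 1010 ± 41.1 with M33-MEIS1, MEIS1-deltaHD and MEIS1-WT, against 701.5 ± 33.1 in MIY-ctrl. A much dimmer Nip7 probe set gave -0.59, -0.45 and -0.21 when tested singly (adjusted p = 0.00149, 0.00939 and 0.261), the only member with calls in opposite directions. Wdr74, an early large subunit factor, was higher by 0.33, 0.47 and 0.36, Rrs1, which in yeast helps bring in 5S ribosomal RNA, by 0.52, 0.39 and 0.42, and Rrp1b, a relative of yeast Rrp1, by 0.53, 0.44 and 0.33. A slightly dimmer Rrs1 probe set gave 0.11, 0.19 and 0.26 when tested singly and passed with MEIS1-WT alone (adjusted p = 0.301, 0.0542 and 0.0102). M33-MEIS1 replicate 2 read 926.3 for Rrp1b, beside 589.4 and 725.6, of which the lower overlapped control, and the MEIS1-WT call of Rrp1b was lost without control replicate 1, control replicate 3 or any single MEIS1-WT array. Noc2l, whose yeast relative escorts large subunit precursors out of the nucleolus, was higher with MEIS1-deltaHD (0.61) and MEIS1-WT (0.61) and just missed with M33-MEIS1 (0.31, adjusted p = 0.0526), where replicate 3 read 312.9 beside 456.1 and 462.3. A dimmer Noc2l probe set was higher with M33-MEIS1 when tested singly (0.64, adjusted p = 0.000414). There replicate 3 read highest, at 179.0 beside 136.5 and 137.5. Noc3l, whose yeast relative pairs with that of Noc2l, passed with MEIS1-deltaHD alone (0.34, adjusted p = 0.0191), and not without control replicate 1, control replicate 3, MEIS1-deltaHD replicate 2 or MEIS1-deltaHD replicate 3. A dimmer Noc3l probe set gave -0.157, -0.039 and 0.146 when tested singly and did not pass (adjusted p = 0.497, 0.875 and 0.529).

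**Figure D3:**
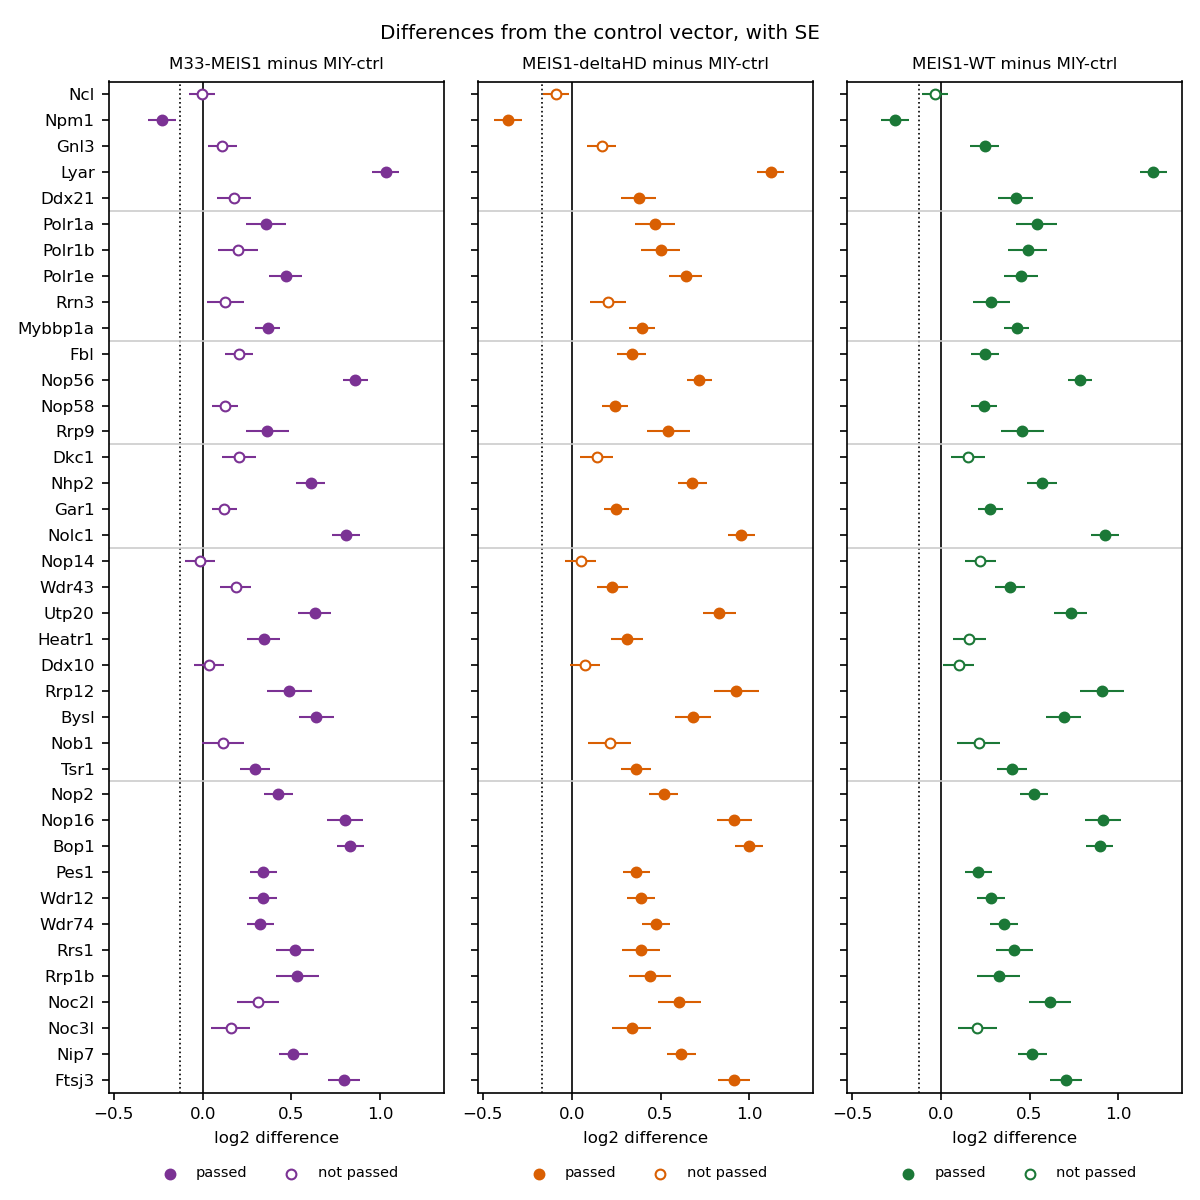
Log2 difference from MIY-ctrl of each of the 39 genes, by role, for M33-MEIS1, MEIS1-deltaHD and MEIS1-WT. Points are the fitted differences, bars the SE, filled points passed, the solid line is 0 and the dotted line the median over all features (-0.13, -0.17 and -0.12). Most points lie to the right of both lines. Npm1 lies to the left, which it does not after quantile normalization with MEIS1-WT.

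The design also asks whether the response needs the homeodomain of MEIS1. Between MEIS1-deltaHD and MEIS1-WT, 0 of the 39 genes passed the limma test, while 5.25% of all features did, 2.83% as higher and 2.43% as lower. Of the 39, 1 was below 0.05 before adjustment, namely Ftsj3, with a difference of 0.21 and an adjusted p of 0.243 from limma. The differences of the 39 genes ran between -0.17 and 0.21 with a median of 0.00, and their 95% intervals all lay between -0.35 and 0.39. When the 72 kept probe sets were tested singly, 1 passed, the dimmer one of Polr1e (0.38, adjusted p = 0.0415). It averaged 201.9 ± 17.4 with MEIS1-deltaHD and 151.2 ± 6.89 with MEIS1-WT. The brighter Polr1e probe set did not pass (0.19, adjusted p = 0.351). A test that misses the threshold does not show that both forms act alike. The groups did not overlap for 5 genes in the higher and 3 in the lower direction, against 10.5% and 12.5% of all features. The lowest difference was that of Nop14 (-0.17), which averaged 319.3 ± 18.3 with MEIS1-deltaHD and 361.3 ± 7.38 with MEIS1-WT.

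Set against the other constructs, M33-MEIS1 had fitted differences slightly below 0 for most members, and almost none of these differences passed. The median levels of the 39 genes on single arrays, given above, overlapped between M33-MEIS1 and each of the other constructs. Against MEIS1-WT, 27 of the 39 genes had a difference below 0, and 8 were below 0.05 before adjustment. The median was -0.06, beside -0.002 over all features. Combined over both groups, the replicate SD of the median level was 0.107 here and 0.0819 for MEIS1-deltaHD. Over all features, 6.46% passed, 4.11% as higher and 2.36% as lower, and 1 of the 39 genes passed. It was Rrp12, at 120.7 ± 19.1 with M33-MEIS1 and 165.8 ± 5.34 with MEIS1-WT, a difference of -0.42 (95% interval -0.68 to -0.16, adjusted p = 0.0412). The call was lost without any single MEIS1-WT array, without MEIS1-deltaHD replicate 2 or 3, and without M33-MEIS1 replicate 1 or 3, and the highest adjusted p was 0.238. When probe sets were tested singly, the dimmer Ddx21 probe set was also lower (-0.31, adjusted p = 0.0124), while the brighter one did not pass (-0.25, adjusted p = 0.19). The groups did not overlap for 1 gene in the higher and 9 in the lower direction, against 11.2% and 10.4% of all features. Against MEIS1-deltaHD, 32 of the 39 genes had a difference below 0, with a median of -0.09 beside 0.025 over all features. Of the 39, 0 passed the limma test, and 5 were below 0.05 before adjustment. Those were Rrp12 (-0.44), Polr1b (-0.30), Noc2l (-0.30), Utp20 (-0.20) and Bop1 (-0.17), with the lowest adjusted p at 0.119. Over all features 0.71% passed, 0.67% as higher and 0.04% as lower. The groups did not overlap for 1 gene in the higher and 11 in the lower direction, against 9.65% and 6.31% of all features. The share of all features below 0.05 before adjustment is not given here. The counts at that threshold, also the one between MEIS1-deltaHD and MEIS1-WT, therefore cannot be set against it. These comparisons share arrays with each other and with those against control.

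Other genes of the pathway were taken from lists chosen with earlier results of these data known, so their direction is not independent evidence. Of 44 further genes of small subunit assembly, 25, 30 and 26 were higher with M33-MEIS1, MEIS1-deltaHD and MEIS1-WT, and 0 were lower by limma in the authors' scaling (1, 0 and 2 were lower after quantile normalization). Their medians were 0.30, 0.36 and 0.37. Of 41 further genes of large subunit assembly, 22, 25 and 26 were higher and 0, 0 and 1 lower, with medians of 0.29, 0.30 and 0.30. Ddx56, an RNA helicase of this group, averaged 295.1 ± 1.21, 372.1 ± 26.0 and 296.7 ± 9.41 with M33-MEIS1, MEIS1-deltaHD and MEIS1-WT, against 143.1 ± 8.73 in MIY-ctrl. Of 11 further snoRNP genes, 6, 6 and 9 were higher. After median scaling 34, 35 and 37 of the large subunit assembly genes and 9, 10 and 10 of the snoRNP genes were higher. Znhit3, an assembly factor of box C/D particles, averaged 299.6 ± 22.5, 302.5 ± 17.2 and 265.0 ± 9.35 with M33-MEIS1, MEIS1-deltaHD and MEIS1-WT, against 144.7 ± 4.26 in MIY-ctrl.

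The RNA exosome and RNase MRP, which trim and cut precursor ribosomal RNA, were nearly all higher. Of 21 measured genes, 21, 20 and 21 were higher, with medians of 0.49, 0.57 and 0.48. Dis3, a catalytic nuclease of the exosome, read 498.9, 531.5 and 543.3 with M33-MEIS1, 545.2, 606.9 and 528.3 with MEIS1-deltaHD, 545.8, 578.5 and 513.5 with MEIS1-WT, and 299.2, 257.5 and 285.0 in MIY-ctrl. Rpp30, a protein subunit of RNase P and RNase MRP, averaged 763.7 ± 45.7, 857.4 ± 25.1 and 696.6 ± 23.5 with M33-MEIS1, MEIS1-deltaHD and MEIS1-WT, against 454.1 ± 1.51 in MIY-ctrl.

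The rest of the RNA polymerase I machinery had calls whose direction depended on the scaling. Of 13 further genes, 2, 2 and 1 were higher and 1, 2 and 2 lower with M33-MEIS1, MEIS1-deltaHD and MEIS1-WT, with medians of -0.04, -0.09 and -0.04, in the authors' scaling. After quantile normalization 3, 4 and 1 were higher and 3, 3 and 1 lower. After median scaling 4, 6 and 3 were higher and 0, 0 and 0 lower by limma, with medians of 0.15, 0.13 and 0.16. Tcof1, the treacle gene of ribosomal DNA transcription, was higher by 0.36, 0.59 and 0.52. Ttf1, the termination factor of the same polymerase, had differences of -0.47, -0.52 and -0.41 that passed in the authors' scaling and did not after quantile normalization or median scaling. For RNA polymerase III, which makes 5S ribosomal RNA and transfer RNAs, 6, 8 and 6 of 21 genes were higher and 3, 3 and 2 lower, with medians of 0.13, 0.12 and 0.10, in the authors' scaling. After median scaling 11, 11 and 11 were higher and 1, 2 and 1 lower, with medians of 0.33, 0.34 and 0.30. Its alternative subunits Polr3g and Polr3gl were higher and lower with every construct: Polr3g averaged 89.37 ± 1.29, 95.89 ± 6.82 and 98.74 ± 3.38 with M33-MEIS1, MEIS1-deltaHD and MEIS1-WT, against 35.88 ± 4.85 in MIY-ctrl, and Polr3gl averaged 91.22 ± 15.1, 71.55 ± 5.92 and 77.0 ± 9.19, against 155.8 ± 28.2 in MIY-ctrl.

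Few genes of the ribosomal proteins themselves were higher. Of 22 large subunit proteins with a probe set of their own, 0 were higher and 12, 20 and 16 were lower with M33-MEIS1, MEIS1-deltaHD and MEIS1-WT, with medians of -0.23, -0.33 and -0.28, in the authors' scaling. After quantile normalization 3, 2 and 2 were lower and 2, 1 and 2 higher, with medians of -0.01, -0.02 and 0.01, and after median scaling 0, 2 and 2 were lower. Of 21 small subunit proteins, 1, 2 and 1 were higher and 13, 19 and 18 were lower in the authors' scaling. After quantile normalization 2, 4 and 4 were lower, and the medians were -0.06, -0.07 and -0.02. The lower calls of the ribosomal proteins thus depended on the scaling. In the further small and large subunit assembly lists, quantile normalization gave 21, 25 and 27 and 21, 21 and 24 higher genes. Rps18, for example, averaged 7995 ± 527, 7246 ± 452 and 7667 ± 508 with M33-MEIS1, MEIS1-deltaHD and MEIS1-WT, against 10360 ± 676 in MIY-ctrl. Rps25 was higher in each of the 3 scalings, at 443.3 ± 25.4, 452.8 ± 41.2 and 421.9 ± 21.0, against 334.7 ± 10.7 in MIY-ctrl. Of the genes listed, 22 of 47 for the large subunit and 22 of 33 for the small subunit had a probe set annotated to them alone.

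**Figure D4:**
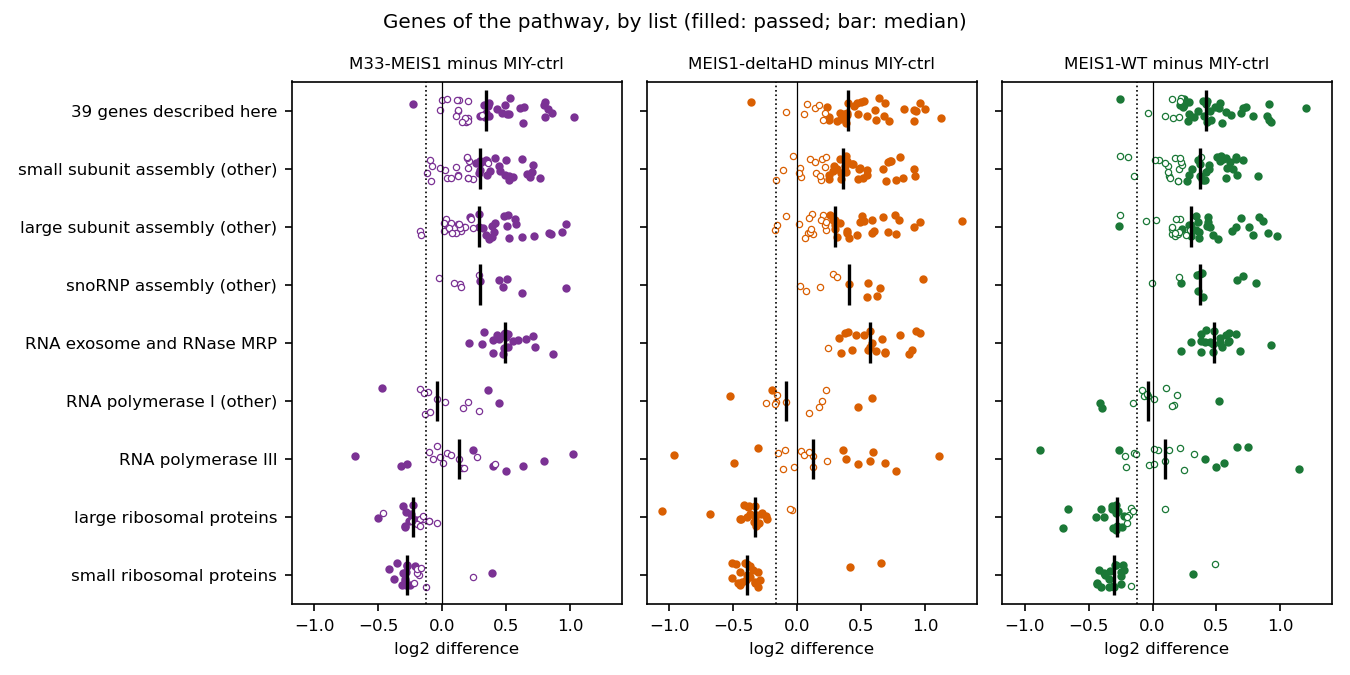
Log2 difference from MIY-ctrl of each gene (points, filled where passed) in the 39 genes described here and 8 further lists, for M33-MEIS1, MEIS1-deltaHD and MEIS1-WT in the authors' scaling. Black bars are medians, the solid line is 0 and the dotted line the median over all features. The assembly, snoRNP and exosome lists lie to the right, with medians of 0.29 to 0.57, and the ribosomal proteins lie near or to the left of the dotted line; after quantile normalization their medians were between -0.07 and 0.01.

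Neither Myc nor Mycn was higher with any construct in the authors' scaling. Myc read 893.7, 972.8 and 764.5 with M33-MEIS1, 924.0, 884.8 and 921.1 with MEIS1-deltaHD, 856.1, 855.2 and 869.1 with MEIS1-WT, and 1150, 1227 and 1064 in MIY-ctrl. It was lower, with differences of -0.39, -0.33 and -0.41 (adjusted p = 0.000749, 0.00271 and 0.000363) in the authors' scaling, and was also lower after quantile normalization. After median scaling it did not pass, at -0.19, -0.10 and -0.21 (adjusted p = 0.0836, 0.379 and 0.0575).

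Mycn, its relative, read 1631, 1661 and 1878 with M33-MEIS1, 5961, 6627 and 6760 with MEIS1-deltaHD, 4066, 3449 and 3998 with MEIS1-WT, and 7178, 6733 and 6331 in MIY-ctrl. It was lower with M33-MEIS1 (-1.96, adjusted p = 8.69e-15) and MEIS1-WT (-0.81, adjusted p = 1.98e-08) in each of the 3 scalings. With MEIS1-deltaHD it did not pass (-0.07, adjusted p = 0.564), although it passed as higher after quantile normalization (0.25). Mycn also differed between the constructs, by -1.90 between M33-MEIS1 and MEIS1-deltaHD, by -1.15 between M33-MEIS1 and MEIS1-WT and by 0.75 between MEIS1-deltaHD and MEIS1-WT.

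Mxd1 and Mxd4, which encode partners of MAX that oppose MYC, were lower with every construct in the authors' scaling, at -0.46, -0.70 and -0.42 for Mxd1 and -0.48, -0.85 and -0.71 for Mxd4. After median scaling the M33-MEIS1 calls of both and the MEIS1-WT call of Mxd1 did not pass, and after quantile normalization the M33-MEIS1 and MEIS1-WT calls of Mxd1 did not. Max was dim and did not pass in any of the 3 comparisons. Mlx, a MAX-like factor, was higher with M33-MEIS1 (0.66) and MEIS1-deltaHD (0.55). Of the 10 measured genes of the MYC network, 1, 1 and 1 were higher than control and 4, 3 and 4 lower. The gene higher with MEIS1-WT was not Mlx, which averaged 159.2 ± 2.66 there and 148.5 ± 24.8 in MIY-ctrl. Between M33-MEIS1 and MEIS1-WT, Mnt (-0.48, adjusted p = 0.00387) was lower beside Mycn, and Mlx (0.56) was higher.

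Other measures moved with the same comparisons. Of 17 genes of the G1/S transition, 16, 17 and 16 were higher with M33-MEIS1, MEIS1-deltaHD and MEIS1-WT than in MIY-ctrl, with medians of 0.97, 0.93 and 0.92. All 9 monocyte and macrophage markers were lower with each construct, none at 0, and their summed signal was 3835 to 4310 with M33-MEIS1, 2382 to 2593 with MEIS1-deltaHD, 534.1 to 675.4 with MEIS1-WT and 13170 to 14630 in MIY-ctrl. The 8 neutrophil markers summed to 4034 to 4833 with M33-MEIS1, 2895 to 3474 with MEIS1-deltaHD, 712.0 to 831.8 with MEIS1-WT and 6410 to 7329 in MIY-ctrl. Their genes did not all go the way of the sum: 3, 3 and 0 were higher and 3, 3 and 6 lower with M33-MEIS1, MEIS1-deltaHD and MEIS1-WT. Ngp, S100a8 and S100a9 were the higher ones with M33-MEIS1 and MEIS1-deltaHD, while Mmp8, Cybb and Lcn2 were lower with all 3 constructs. Ltf and Camp were dim, with group means of 5.88 to 27.5. The 6 mast cell and basophil markers summed to 4435 to 4909 with M33-MEIS1, 2140 to 2377 with MEIS1-deltaHD, 1732 to 1821 with MEIS1-WT and 2827 to 4198 in MIY-ctrl. Of these, 3, 2 and 1 were higher and 0, 3 and 4 lower with M33-MEIS1, MEIS1-deltaHD and MEIS1-WT. With MEIS1-deltaHD, Mcpt8 and Hdc were higher, and Gzmb, Cpa3 and Fcer1a were lower. In such bulk RNA, fewer cells of a type and less RNA per cell cannot be told apart. The 7 fibroblast markers summed to 119.0 to 195.7 on all arrays and 0 of the 4 kept by the filter passed the limma test (1, 0 and 0 were below 0.05 before adjustment). The 3 erythroid markers summed to 28.99 to 67.98. Actin, read at its 3′ and 5′ ends, had a signal ratio of 1.31 to 1.44, 1.30 to 1.40 and 1.44 to 1.48 with M33-MEIS1, MEIS1-deltaHD and MEIS1-WT and 1.49 to 1.51 in MIY-ctrl, and the Gapdh ratio was 0.83 to 0.882, 0.811 to 0.828 and 0.822 to 0.838, against 0.774 to 0.801 in MIY-ctrl. The part of any of these measures in the ribosome biogenesis result was not tested.

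Several members were measured by more than 1 probe set. Of 25 genes with several kept probe sets, 18, 19 and 20 had all of them on the same side of 0 in the comparisons of M33-MEIS1, MEIS1-deltaHD and MEIS1-WT with control. Counted singly, 34, 50 and 47 of the 72 kept probe sets were higher and 2, 2 and 1 lower. The share over all kept probe sets of the array is not given here. The groups did not overlap for 23, 31 and 34 of the 39 genes in the higher direction with M33-MEIS1, MEIS1-deltaHD and MEIS1-WT, against 14.7%, 16.5% and 16.5% of all features. They did not overlap in the lower direction for Npm1 alone, in the probe set and scaling above, against 25.3%, 31.7% and 26.5% of all features.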

How the data were processed

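Affymetrix mouse arrays measured RNA in 12 samples, 3 in each of 4 groups taken from the sample titles. The authors deposited array intensity, the signal of each probe set from GCOS 1.2 per the submitters' processing notes. Trimmed by 2% at both ends, every array had a mean of 100, so the deposited intensities were already scaled. The sources used here do not give how background was treated. Precision is limited by the number of arrays.

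The scaling was kept and signals became log2(signal + 16). Of 45101 probe sets, 34945 carried 1 symbol. Those above the 40th percentile of their array on at least 3 of 12 arrays were kept (31726), and each gene was represented by its kept probe set with the highest mean. The model was limma 3.58.1 in R 4.3.3, on 4 group means with an intensity trend and 8 residual degrees of freedom, without a replicate block. P-values were 2-sided and adjusted by Benjamini and Hochberg over 19990 features in each of 6 comparisons, and the fit was tested on simulated data. An exact permutation test of 3 arrays against 3 cannot go below p = 0.1, so the limma p-values rest on a spread shared over groups and features.

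All members were named; from each pathway list, genes were taken from the 3 largest differences among those that passed without overlap, and from the MYC network any measured gene. The members and lists were chosen with earlier results of these data known. Normalization, pseudocount, filter, probe set rule, variance model, replicate block and single arrays left out were tried as alternatives.

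Same-numbered arrays of different groups did not deviate together, as described with the alternatives, so the numbers were not taken as pairs.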

Additional observations from a re-analysis of the deposited data

How the results depend on the processing

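Of 89 calls on single members, 74 stayed on their side of the threshold after quantile normalization, 86 after median scaling, 89 with 1 or with 64 added in place of 16, 85 without the filter, 89 with the filter on all 12 arrays, 78 with the mean of a gene's probe sets, and 73 without the intensity trend. Of 80 calls that remained measurable without the _x_at, _s_at and _a_at probe sets, 80 stayed. Quantile normalization gave 22, 27 and 24 higher members with M33-MEIS1, MEIS1-deltaHD and MEIS1-WT, median scaling 34, 37 and 37, the fit without the trend 20, 27 and 25, and single probe sets 34, 50 and 47 of 72. Over all features, 2473, 2764 and 2665 were higher in the authors' scaling. Quantile normalization gave 2708, 3062 and 2992, and median scaling 4112, 4462 and 4506. Such counts are not given here for the fit without the trend or for single probe sets. With single probe sets, 2 were lower with M33-MEIS1 and 2 with MEIS1-deltaHD. The single lower member, Npm1, gave 0 lower calls with each construct after quantile normalization, median scaling, the mean of probe sets or without its _a_at probe sets, 0 with M33-MEIS1 without the filter, and 0 with M33-MEIS1 and MEIS1-WT without the trend. The median difference after median scaling was 0.53, 0.62 and 0.62. Between MEIS1-deltaHD and MEIS1-WT, 1 was higher with single probe sets (that of Polr1e) and 1 without the _x_at, _s_at and _a_at probe sets. Between M33-MEIS1 and MEIS1-WT, 0 were lower without the filter (Rrp12 adjusted p = 0.0695), without the trend (0.126) or with a block, and 2 with single probe sets or the mean of probe sets.

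Some differences changed sign. After quantile normalization these were Ncl (0.006 with M33-MEIS1, 0.045 with MEIS1-WT), Gnl3 (-0.001) and Ddx10 (-0.015) with M33-MEIS1, and Npm1 (0.015) with MEIS1-WT. After median scaling they were Ncl (0.188, 0.133 and 0.168) and Nop14 with M33-MEIS1 (0.179). With the mean of probe sets they were Ncl (0.074, 0.158 and 0.210), Nip7 with M33-MEIS1 (-0.038, higher and called in its brighter probe set) and Noc3l with M33-MEIS1 (0.000). The cause was not tested.

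Leaving out single arrays gave 20 to 26, 28 to 33 and 25 to 32 higher members with M33-MEIS1, MEIS1-deltaHD and MEIS1-WT, and 0 to 1, 1 to 1 and 0 to 1 lower ones. Between M33-MEIS1 and MEIS1-WT it gave 0 to 1 lower. Of 24, 32 and 32 called members, 19, 29 and 25 passed in every such fit. The sign of some uncalled differences depended on the array left out: Ncl ran between -0.073 and 0.046 with M33-MEIS1 and between -0.101 and 0.018 with MEIS1-WT. With M33-MEIS1, Nop14 ran between -0.061 and 0.051, Nob1 between -0.002 and 0.207 and Ddx10 between -0.002 and 0.105. Rrp12 ran between -0.078 and 0.076 between MEIS1-deltaHD and MEIS1-WT.

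With the replicate number as a block, 25, 31 and 31 members were higher and 1, 1 and 1 lower, and of 89 calls 88 stayed; the lost one was Rrp12 between M33-MEIS1 and MEIS1-WT (adjusted p = 0.0545, 0 lower). Deviations of same-numbered arrays correlated at -0.038 to 0.025, 0 of 18 pairs above 0.1, and 1 of 12 arrays correlated best with its own number. The number of arrays, 3 in each group, limits what can be detected. The alternatives for the pathway lists were chosen after seeing the data.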
